A study of Mus musculus with 37 samples.

Results

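The 36 genes described here are targets of the transcription factor p53, taken as a fixed list of symbols and looked up among the 51123 gene IDs of the expression table, where all 36 were found. RNA was sequenced from cultured mouse bone marrow (BM) and osteosarcoma (OS) cells in 37 libraries, which form 2 sets with controls of their own. In the DKO mice, both Wwox and Trp53 (the gene of p53) were deleted by Osx1-Cre, a recombinase driven by the Osterix promoter in bone-forming progenitors, and in the SKO mice Trp53 alone was deleted. Both lines carried a tdTomato reporter, and RNA was prepared from cultures after passaging, when tdTomato-positive cells were dominant. Set 1 holds 6 DKO yBM libraries (BM of young mice without tumors, 3 at 1.5 months and 3 at 4 months), 3 DKO BMT libraries (BM of mice that bore a tumor), 3 DKO tumor libraries and 4 control BM libraries of WT genotype. Set 2 holds 3 libraries each of DKO yBM, SKO yBM, DKO BMT, SKO BMT, DKO tumor, SKO tumor and control BM of WT genotype. The labels give ages for the set 1 yBM libraries only, and whether the controls carried Cre is described differently in different places of the study. Levels are TPM values, transcripts counted per a fixed total, a unit scaled for transcript length from which the number of reads cannot be had. The study's methods count as many WT and young mice as set 1 has control BM and yBM libraries. They also count 6 tumor-bearing mice, where set 1 holds 3 BMT and 3 tumor libraries. The study's results and figure legends describe BMT cells as paired with the tumors, but no label ties a BMT or tumor library to a mouse. For set 2 the sources used here do not say whether the libraries of a group came from separate mice, so its p-values measure the spread between libraries.

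p53 is held at low levels in unstressed cells by Mdm2, a ubiquitin ligase that is itself encoded by a p53 target, which closes a feedback loop. When DNA is damaged or growth signals are excessive, p53 accumulates and binds its response elements in DNA. It activates genes that arrest the cell cycle, repair DNA, alter metabolism or start apoptosis. Loss of p53 in osteoblast progenitors is a known driver of OS in mice and in people. The list was ordered here by role, with 2 feedback genes, 15 genes of cell death, 7 of growth arrest and stress signalling, 5 of DNA repair, 6 of metabolism and 1 noncoding RNA.

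A p53 response element is formed by a pair of half-sites, each with a core of C, 2 bases that are A or T, and G, between 3 purines and 3 pyrimidines. RefSeq promoter windows of the GRCm38.p6 build, 250 bases before to 50 bases after an annotated start, were found for 26 of the 36 targets. A half-site without mismatch stood in the window of 10 of these 26 targets (38.5%), against 9.55% of all 27025 genes with a window. A full site of 20 bases, with the C and G of both cores kept and up to 3 other mismatches, stood in 5 of the 26 (19.2%), against 1.63% of all genes. Both strands were covered because the motif reads the same on either strand, and Ccng1, Aen and Sesn1 are counted under both motifs. The window of Ccng1 is shown because its site had the fewest mismatches of any target (1) and because Ccng1 was lower in every comparison of a knockout group with control BM. It lies at chr11:40755237-40755536 on the minus strand, with the full site in capitals starting 195 bases before the start, at position −195.
Ccng1: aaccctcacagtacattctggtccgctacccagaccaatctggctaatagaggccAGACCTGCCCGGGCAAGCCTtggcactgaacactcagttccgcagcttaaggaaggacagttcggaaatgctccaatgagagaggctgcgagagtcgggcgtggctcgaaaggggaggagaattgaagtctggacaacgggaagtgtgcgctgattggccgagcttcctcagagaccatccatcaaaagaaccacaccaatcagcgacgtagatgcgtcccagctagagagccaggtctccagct
The full sites of the other 4 targets, each with 3 mismatches, are given with the 4-base cores in capitals, so that they can be set beside the expression of their genes. The windows are chr7:16309333-16309632 (plus strand) for Bbc3, chr7:78895808-78896107 (plus strand) for Aen, chr10:41887189-41887488 (plus strand) for Sesn1 and chr6:127109503-127109802 (minus strand) for Tigar.
Bbc3: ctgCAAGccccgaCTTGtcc
Aen: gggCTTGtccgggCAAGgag
Sesn1: aagCTTGtttttgCTGGcct
Tigar: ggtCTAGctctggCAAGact
Of these 5 genes, Ccng1 was lower in all 9 comparisons of a knockout group with control BM, Sesn1 in 6, Bbc3 in 4, Aen in 2 and Tigar in none of them. A match is a description of the sequence only, and known p53 elements often lie in introns, outside these windows.

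The deleted gene was examined first. In set 1, Trp53 stood at 3.63 to 16.2 TPM (median 10.1) in DKO yBM, at 9.17, 28.4 and 32.3 TPM in DKO BMT and at 11.3, 2.09 and 2.70 TPM in DKO tumor, against 45.1, 53.4, 40.1 and 40.7 TPM in control BM. Trp53 in the DKO libraries of set 2 stood at 3.58, 3.03 and 2.06 TPM in yBM, at 1.96, 14.03 and 1.98 TPM in BMT and at 3.69, 4.82 and 4.12 TPM in tumor. Trp53 in the SKO libraries stood at 3.77, 2.91 and 3.43 TPM in yBM, at 4.64, 4.56 and 2.77 TPM in BMT and at 2.49, 0.792 and 1.98 TPM in tumor, against 35.9, 65.9 and 74.9 TPM in control BM. The knockout libraries lay below all controls of their set, by very different margins. Trp53 reached 63.3% and 72.1% of the control mean in DKO BMT 2 and DKO BMT 3 of set 1, and 23.8% in DKO BMT 2 of set 2. The other 17 knockout libraries of set 2 held 1.35% to 8.19%. In the fit across all genes with limma, Trp53 fell by 2.13 on the log2 scale in set 1 DKO yBM (SE 0.44, adjusted p = 0.0185) and by 3.13 in DKO tumor (SE 0.52, adjusted p = 0.0155). The difference of −1.08 in DKO BMT did not pass (SE 0.52, adjusted p = 0.259). In set 2 it fell in all 6 groups, with log2 fold changes of −3.46 to −4.43. These are gene-level TPM, and which exons were deleted is not given in the sources used here, and whether transcripts of a deleted allele were counted was not tested.

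**Figure D1:**
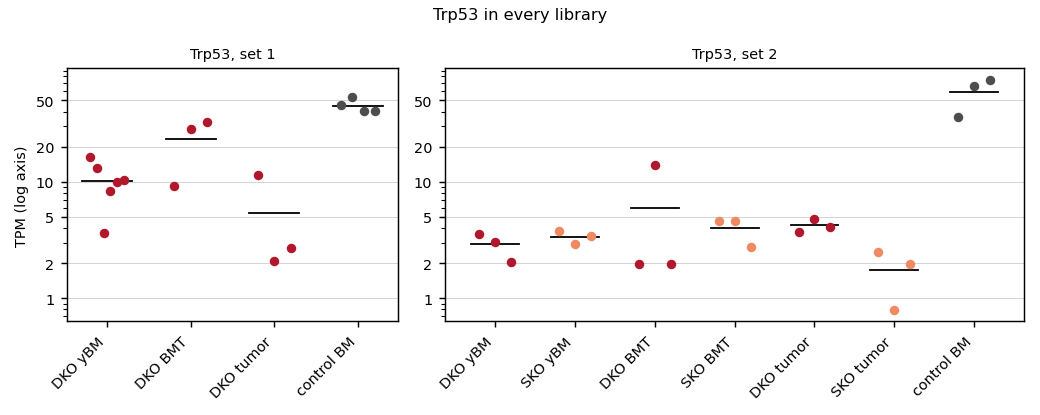
Trp53 in TPM on a log axis in every library (points) with the group mean (bar), knockout groups left of control BM, set 1 on the left and set 2 on the right. DKO BMT 2 and 3 of set 1, at 28.4 and 32.3 TPM, sit closest to the controls of set 1, which range from 40.1 to 53.4 TPM.

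Other features of the libraries moved with these groups. Wwox exceeded 50% of the control mean in 7 set 1 libraries labelled DKO (DKO yBM 2 to 6, DKO BMT 1 and DKO tumor 1) and in the 3 set 2 libraries labelled DKO tumor. It was near 0 in 2 libraries labelled SKO (0.102 TPM in SKO BMT 2 and 0.0857 TPM in SKO BMT 3). A WT library was also under the 50% mark, since control BM 3 of set 1 held 0.922 TPM of Wwox, 32.0% of the control mean. The mean log2(TPM + 1) of 14 leukocyte markers was 4.65 to 8.41 in set 1 DKO yBM and 7.41 to 7.94 in DKO BMT, against 6.38 to 8.53 in control BM, so these groups overlapped. It was 6.50 in DKO tumor 1 and 0.573 and 0.870 in DKO tumor 2 and 3. In set 2 it was 0.308 to 0.980 in 16 knockout libraries, 5.99 in SKO BMT 2 and 4.90 in DKO BMT 2, against 8.82 to 9.04 in control BM. Between 0 and 8 of the 14 markers were at exactly 0 in single knockout libraries. Summed over the markers, this is 6.19 to 3094 TPM in the knockout libraries of set 2 and 21795 to 26630 TPM in control BM. The part of the leukocyte level in the results was not tested beyond the fits with and without it that are given beside them. In RNA from bulk cultures, fewer leukocytes and less RNA per leukocyte cannot be told apart, and in set 2 the knockout and the loss of leukocyte markers cannot be told apart either. The mean log2(TPM + 1) of 12 mesenchymal markers was 5.73 to 9.17 over all libraries. In the limma fits, 9 of the 14 leukocyte markers were lower in set 1 DKO tumor and 13 or 14 in each knockout group of set 2, against 0 in set 1 DKO yBM and DKO BMT.

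Where p53 targets passed the test in set 1, they were lower in the knockout groups than in control BM. Of the 34 targets that passed the filter in set 1, 18 were lower in DKO yBM (52.9%, against 6.14% of all 14404 genes), 9 in DKO BMT (26.5%, against 1.4%) and 9 in DKO tumor (26.5%, against 2.21%), at an adjusted p under 0.05. Eda2r and Pidd1, included where called, passed the filter only with the control BM libraries counted. They thus entered the test because they were high in control BM. No target was higher in these 3 groups, also at an unadjusted p under 0.05. In that direction limma called 1.67%, 0.958% and 1.19% of all genes higher at the adjusted threshold. Their median log2 fold change was −1.07 in DKO yBM, −0.73 in DKO BMT and −0.81 in DKO tumor, against −0.22, −0.06 and −0.09 over all genes tested. The targets of largest log2 fold change among those called were Btg2 (−3.19), Eda2r (−3.0) and Trp53inp1 (−2.61) in DKO yBM, Btg2 (−2.87), Eda2r (−2.87) and Ccng1 (−2.56) in DKO BMT, and Trp53inp1 (−3.26), Btg2 (−2.99) and Ccng1 (−2.95) in DKO tumor. The counts moved with single libraries. Leaving out control BM 4 left 8 targets lower in DKO yBM and 3 in DKO tumor, and leaving out DKO BMT 3 left 4 in DKO BMT. Leaving out DKO tumor 3 left 4 in DKO tumor, and leaving out control BM 3 left 5 in DKO tumor. Without the libraries whose Wwox went against the label, 2 targets were called by limma in DKO BMT and 5 in DKO tumor. DKO yBM then held 1 library and had no spread of its own. Without DKO BMT 2 and 3, whose Trp53 did, 3 were called in DKO BMT, which then held 1 library, and the spread came from the other groups. With the leukocyte level as a covariate, 19 targets were lower in DKO yBM, 10 in DKO BMT and 2 in DKO tumor. The shares of all genes in these alternative fits are not given here, so their counts cannot be read against a background.

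In set 2 all 36 targets were tested. Relative to control BM, 15 were lower in DKO yBM (41.7%, against 10.2% of all 14458 genes) and 14 in SKO yBM (38.9%, against 7.77%). In the marrow of tumor-bearing mice, 13 were lower in DKO BMT (36.1%, against 7.79%) and 17 in SKO BMT (47.2%, against 8.36%). In the tumors, 15 were lower in DKO tumor (41.7%, against 9.48%) and 18 in SKO tumor (50%, against 9.57%). A single target was higher in DKO yBM (Gls2), DKO BMT (Gls2), SKO BMT (Fdxr) and DKO tumor (Gls2). Of all genes, 9.34%, 4.22%, 5% and 7.71% were higher in these groups. None was higher by limma in SKO yBM or SKO tumor, where 5.78% and 2.01% of all genes were. In each of them 1 target passed an unadjusted p under 0.05 in that direction. The median log2 fold change of the targets was −1.21 in DKO yBM, −1.09 in SKO yBM, −1.09 in DKO BMT, −1.35 in SKO BMT, −1.16 in DKO tumor and −1.44 in SKO tumor, against 0.07, 0.24, 0.09, 0.07, 0.11 and −0.11 over all genes. The targets of largest log2 fold change among those called were Trp53inp1 (−3.87), Dcxr (−3.21) and Ccng1 (−3.20) in DKO yBM, and Eda2r (−3.47), Dcxr (−3.45) and Trp53inp1 (−3.37) in SKO yBM. In BMT they were Dcxr (−3.22), Ccng1 (−3.14) and Trp53inp1 (−2.80) in DKO cells, and Ccng1 (−3.50), Trp53inp1 (−3.17) and Eda2r (−3.12) in SKO cells. In tumors they were Dcxr (−4.30), Trp53inp1 (−3.72) and Ccng1 (−3.21) in DKO cells, and Eda2r (−3.39), Dcxr (−3.25) and Ccng1 (−3.24) in SKO cells. The 9 comparisons share the controls of their set, so they are not independent. With the leukocyte level as a covariate no target was called by limma in any of the 6 groups of set 2. In these fits 8 to 13 were lower at an unadjusted p under 0.05. The share of all genes at that threshold is not given here, so these counts cannot be read against a background. Leaving out control BM 2, control BM 3 or SKO BMT 3 each left 10 lower in SKO BMT. Without SKO BMT 2 and DKO BMT 2, the knockout libraries of set 2 that held leukocyte markers, 15 targets were lower in SKO BMT and 14 in DKO BMT, an alternative chosen after seeing the data.

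**Figure D2:**
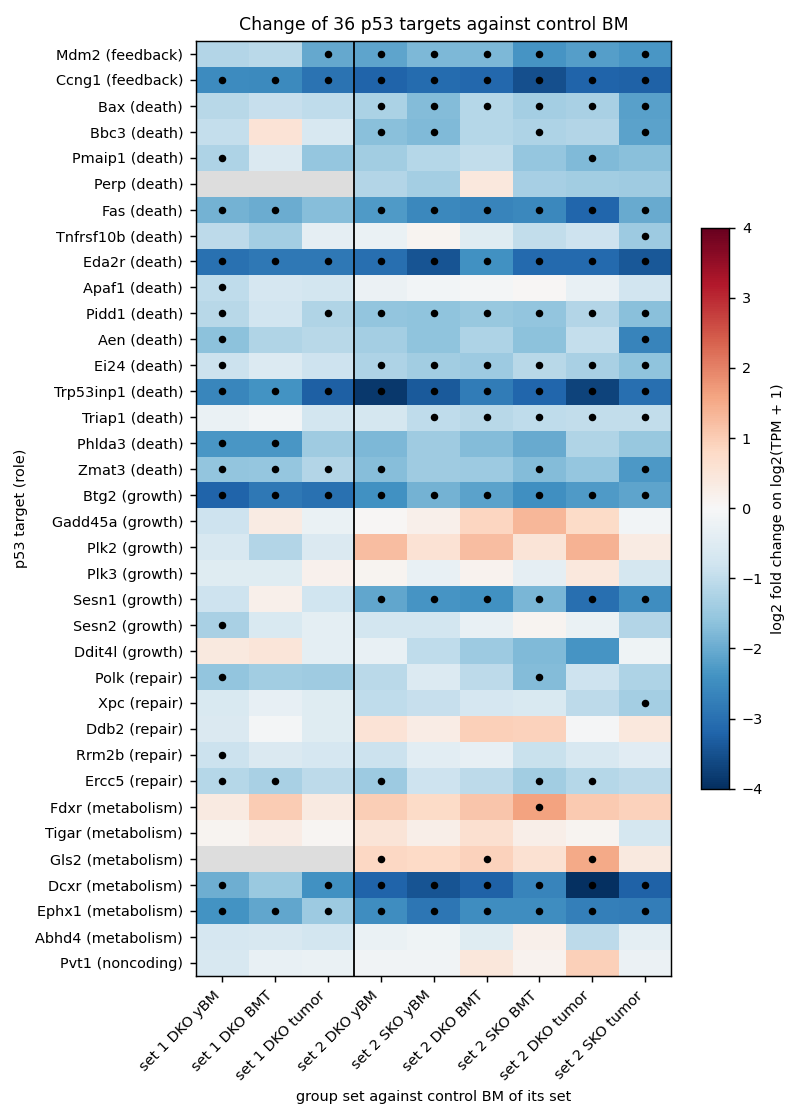
Log2 fold change on the log2(TPM + 1) scale of the 36 p53 targets (rows, with their role) in the 9 knockout groups against control BM of their set (columns), where blue is lower and red is higher in the knockout group, black dots mark an adjusted p under 0.05 and grey cells were not tested. Ccng1, Eda2r, Trp53inp1, Btg2 and Ephx1 carry a dot in all 9 columns, and the few red cells with a dot are Fdxr and Gls2 in set 2.

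The 2 feedback genes were both lower. In set 1, Ccng1 stood at 14.8 to 50.3 TPM (median 40.7) in DKO yBM, at 39.1, 49.1 and 16.2 TPM in DKO BMT and at 19.9, 24.7 and 27.4 TPM in DKO tumor, against 246, 145, 147 and 250.6 TPM in control BM. Ccng1 in the DKO libraries of set 2 stood at 38.4, 36.9 and 20.1 TPM in yBM, at 23.4, 78.0 and 17.3 TPM in BMT and at 23.1, 33.0 and 36.6 TPM in tumor. Ccng1 in the SKO libraries stood at 30.9, 31.5 and 38.05 TPM in yBM, at 21.4, 22.3 and 31.3 TPM in BMT and at 38.6, 26.5 and 25.5 TPM in tumor, against 173, 386 and 362 TPM in control BM. Ccng1 encodes cyclin G1, which recruits a phosphatase to Mdm2, and every knockout library lay below every control of its set, with DKO BMT 2 of set 2 the highest of the knockouts. Its log2 fold change was −2.51 (SE 0.36, adjusted p = 0.00476) in set 1 DKO yBM, and ranged over −2.51 to −3.50 across the 9 comparisons, all of them called. In set 1, Mdm2 stood at 12.3 to 46.0 TPM (median 35.5) in DKO yBM, at 29.3, 49.8 and 19.99 TPM in DKO BMT and at 7.25, 19.4 and 23.7 TPM in DKO tumor, against 73.5, 50.3, 64.4 and 78.1 TPM in control BM. Mdm2 in the DKO libraries of set 2 stood at 20.2, 26.8 and 11.5 TPM in yBM, at 17.0, 27.2 and 27.7 TPM in BMT and at 13.1, 21.2 and 19.3 TPM in tumor. Mdm2 in the SKO libraries stood at 23.4, 22.8 and 24.6 TPM in yBM, at 10.3, 18.03 and 20.1 TPM in BMT and at 19.1, 13 and 16.3 TPM in tumor, against 68.0, 99.5 and 86.6 TPM in control BM. Mdm2 was also below every control in every knockout library, but DKO BMT 2 of set 1, at 49.8 TPM, nearly reached control BM 2, at 50.3 TPM. It was called in 7 of 9 comparisons, among them DKO tumor of set 1, with a log2 fold change of −2.05 (SE 0.46, adjusted p = 0.0357), and the values of −1.16 in DKO yBM (adjusted p = 0.0755) and −1.06 in DKO BMT (adjusted p = 0.206) did not pass.

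The 15 genes of cell death make up the largest group, and those called were all lower. There were 10 of the 14 tested in set 1 in DKO yBM, 5 in DKO BMT and 4 in DKO tumor, where 6.14%, 1.4% and 2.21% of all genes were lower. Of 15 tested in set 2, 8 were lower in DKO yBM, 8 in SKO yBM, 7 in DKO BMT, 9 in SKO BMT, 8 in DKO tumor and 11 in SKO tumor, with none higher. Between 7.77% and 10.2% of all genes were lower in these groups of set 2. Among the death receptors, Eda2r (a receptor of the tumor necrosis factor family that binds ectodysplasin A2) and Fas (the receptor of Fas ligand) stood out. In set 1, Eda2r stood at 0.0866 to 0.508 TPM (median 0.203) in DKO yBM, at 0.160, 0.913 and 0.134 TPM in DKO BMT and at 0.402, 0.318 and 0.382 TPM in DKO tumor, against 14.1, 7.71, 5.55 and 10.3 TPM in control BM. Eda2r in the DKO libraries of set 2 stood at 0.454, 0.205 and 1.40 TPM in yBM, at 0.125, 4.16 and 1.56 TPM in BMT and at 0.143, 0.931 and 0.550 TPM in tumor. Eda2r in the SKO libraries stood at 0.0788, 0.193 and 0.30 TPM in yBM, at 0.0622, 0.273 and 1.53 TPM in BMT and at 0.266, 0.240 and 0.247 TPM in tumor, against 7.0, 16.6 and 15.1 TPM in control BM. Eda2r was at most 1.56 TPM in all knockout libraries except DKO BMT 2 of set 2, which held 4.16 TPM and was still below the lowest control. Its log2 fold change was −3.0 (SE 0.24, adjusted p = 1.53e-05) in set 1 DKO yBM and ranged over −2.42 to −3.47, called in all 9 comparisons, on a scale that understates the change of a gene this low. In set 1 no knockout library reached 1 TPM, so Eda2r passed the filter there only through control BM. In set 1, Fas stood at 3.49 to 11.6 TPM (median 9.54) in DKO yBM, at 4.32, 15.3 and 5.42 TPM in DKO BMT and at 9.20, 7.52 and 10.4 TPM in DKO tumor, against 61.7, 22.7, 20.6 and 34.8 TPM in control BM. Fas in the DKO libraries of set 2 stood at 9.68, 6.30 and 7.59 TPM in yBM, at 6.70, 10.9 and 2.33 TPM in BMT and at 2.31, 1.90 and 9.30 TPM in tumor. Fas in the SKO libraries stood at 5.53, 8.57 and 4.49 TPM in yBM, at 12.8, 3.16 and 4.98 TPM in BMT and at 10.6, 6.27 and 12.5 TPM in tumor, against 26.1, 50.3 and 52.3 TPM in control BM. Fas was below every control in every knockout library and was called in 8 of 9 comparisons, with −3.18 (SE 0.55, adjusted p = 0.000416) in set 2 DKO tumor and −1.72 (SE 0.47, adjusted p = 0.055), which did not pass, in set 1 DKO tumor. Tnfrsf10b, the mouse TRAIL receptor, was called lower only in SKO tumor, with −1.46 (SE 0.45, adjusted p = 0.0418).

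Trp53inp1, which encodes a stress-induced nuclear protein that acts with p53, had the smallest p of all targets in set 1 DKO tumor. In set 1, Trp53inp1 stood at 1.67 to 2.90 TPM (median 2.84) in DKO yBM, at 2.58, 5.59 and 2.00 TPM in DKO BMT and at 1.28, 1.74 and 0.849 TPM in DKO tumor, against 19.8, 17.4, 21.2 and 25.2 TPM in control BM. Trp53inp1 in the DKO libraries of set 2 stood at 0.649, 2.1 and 0.337 TPM in yBM, at 2.78, 5.47 and 1.61 TPM in BMT and at 1.67, 0.458 and 1.42 TPM in tumor. Trp53inp1 in the SKO libraries stood at 2.02, 1.84 and 1.27 TPM in yBM, at 1.64, 1.40 and 3.60 TPM in BMT and at 0.939, 4.29 and 2.89 TPM in tumor, against 18.3, 31.6 and 32.9 TPM in control BM. The highest knockout library, DKO BMT 2 of set 1 at 5.59 TPM, stayed far under the lowest control. The log2 fold change was −3.26 (SE 0.27, adjusted p = 3.03e-05) in set 1 DKO tumor and −3.87 (SE 0.45, adjusted p = 4.57e-06) in set 2 DKO yBM, and the gene was called in all 9 comparisons.

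The genes of the mitochondrial route of apoptosis were called in some comparisons and not in others. In set 1, Bax stood at 81.2 to 459 TPM (median 221) in DKO yBM, at 220.0, 268 and 192 TPM in DKO BMT and at 345, 145 and 194 TPM in DKO tumor, against 404, 543, 373 and 408 TPM in control BM. Bax in the DKO libraries of set 2 stood at 187, 172 and 236 TPM in yBM, at 136, 261 and 277 TPM in BMT and at 199, 159 and 228 TPM in tumor. Bax in the SKO libraries stood at 131, 158 and 134 TPM in yBM, at 174, 221 and 161 TPM in BMT and at 135, 64.3 and 132 TPM in tumor, against 309, 625 and 541 TPM in control BM. Bax, which forms pores in the outer mitochondrial membrane, was below the controls of set 2 in all 18 knockout libraries and was called in its 6 groups. In set 1, DKO yBM 2, at 459 TPM, lay above 3 of the 4 controls and no group was called (log2 fold changes −0.93 to −1.12). Bbc3 and Pmaip1, which encode the BH3-only proteins Puma and Noxa, were called lower in 4 comparisons of set 2 (Bbc3) and in 1 comparison of each set (Pmaip1). Bbc3 in set 1 DKO BMT, at 7.66, 8.38 and 16.2 TPM against 3.55, 6.96, 10.4 and 7.52 TPM in control BM, overlapped with the controls and did not pass, with a log2 fold change of 0.54 (SE 0.37, adjusted p = 0.448). Apaf1, which assembles the apoptosome, was called only in set 1 DKO yBM, with −1.003 (SE 0.29, adjusted p = 0.0456). Perp, a membrane protein of desmosomes, never reached 1 TPM in set 1 and was not tested there. In set 2 it was 0 to 0.700 TPM in all knockout libraries except DKO BMT 1, which held 31.1 TPM, against 1.69, 3.21 and 1.34 TPM in control BM.

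In set 1, Pidd1 stood at 0.429 to 0.844 TPM (median 0.649) in DKO yBM, at 0.5257, 1.18 and 1.58 TPM in DKO BMT and at 0.795, 0.350 and 0.488 TPM in DKO tumor, against 3.59, 1.598, 1.94 and 3.35 TPM in control BM. Pidd1 in the DKO libraries of set 2 stood at 0.504, 0.379 and 0.470 TPM in yBM, at 0.826, 0.7099 and 0.118 TPM in BMT and at 1.04, 0.787 and 0.939 TPM in tumor. Pidd1 in the SKO libraries stood at 0.375, 0.389 and 0.537 TPM in yBM, at 0.878, 0.435 and 0.179 TPM in BMT and at 0.721, 0.0606 and 0.362 TPM in tumor, against 1.61, 4.95 and 4.33 TPM in control BM. Pidd1, the scaffold of the caspase-2 complex, was a low gene in all libraries, and every knockout library lay below every control of its set. Among the knockouts, only DKO BMT 2 and 3 of set 1 and DKO tumor 1 of set 2 reached 1 TPM. Pidd1 thus passed the filter of both sets only with the control BM libraries counted. It was called in 8 comparisons, with −1.10 (SE 0.22, adjusted p = 0.0159) in set 1 DKO yBM, and −0.78 (SE 0.26, adjusted p = 0.102) in DKO BMT, which did not pass. In set 1, Ei24 stood at 32.0 to 37.7 TPM (median 34.6) in DKO yBM, at 55.3, 35.7 and 39.2 TPM in DKO BMT and at 49.2, 32.4 and 27.6 TPM in DKO tumor, against 60.5, 81.3, 48.9 and 64.98 TPM in control BM. Ei24 in the DKO libraries of set 2 stood at 41.0, 34.2 and 40.2 TPM in yBM, at 46.3, 39.7 and 19.7 TPM in BMT and at 45.4, 36.5 and 31.1 TPM in tumor. Ei24 in the SKO libraries stood at 33.8, 31.9 and 37.4 TPM in yBM, at 58.3, 31.9 and 39.9 TPM in BMT and at 37.5, 18.8 and 35.96 TPM in tumor, against 74.9, 98.1 and 108 TPM in control BM. Ei24, a protein of the endoplasmic reticulum, overlapped in DKO tumor 1 and DKO BMT 1 of set 1 with control BM 3 and was called in 7 comparisons, with −1.62 (SE 0.34, adjusted p = 0.00277) in set 2 SKO tumor.

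In set 1, Triap1 stood at 12.3 to 32.8 TPM (median 23.5) in DKO yBM, at 36.4, 17.5 and 19.1 TPM in DKO BMT and at 14.6, 11.7 and 17.6 TPM in DKO tumor, against 19.1, 25.6, 30.0 and 26.3 TPM in control BM. Triap1 in the DKO libraries of set 2 stood at 30.4, 21.4 and 27.1 TPM in yBM, at 20.7, 18.01 and 19.6 TPM in BMT and at 22.5, 22.7 and 18.7 TPM in tumor. Triap1 in the SKO libraries stood at 16.8, 23.2 and 22.5 TPM in yBM, at 23.4, 23.7 and 15.6 TPM in BMT and at 23.6, 25.8 and 15.2 TPM in tumor, against 25.4, 48.7 and 63.9 TPM in control BM. Triap1, a mitochondrial inhibitor of apoptosis, was called in set 2 only, and a difference between the sets was not tested. DKO yBM 1 and DKO BMT 1 of set 1 exceeded all their controls and no group of set 1 was called, with values of −0.11 to −0.75, whereas 5 of the 6 groups of set 2 were called, with −1.11 (SE 0.32, adjusted p = 0.0288) in DKO BMT. In set 1, Zmat3 stood at 4.66 to 7.13 TPM (median 5.66) in DKO yBM, at 7.11, 5.13 and 5.23 TPM in DKO BMT and at 9.67, 6.57 and 7.47 TPM in DKO tumor, against 22.4, 29.8, 11.3 and 16.3 TPM in control BM. Zmat3 in the DKO libraries of set 2 stood at 7.31, 10.5 and 6.46 TPM in yBM, at 10.6, 15.2 and 5.56 TPM in BMT and at 11.9, 9.65 and 6.36 TPM in tumor. Zmat3 in the SKO libraries stood at 7.12, 11.8 and 11.4 TPM in yBM, at 10.7, 11.97 and 3.48 TPM in BMT and at 10.5, 1.25 and 7.12 TPM in tumor, against 20.7, 31.0 and 34.8 TPM in control BM. Zmat3, an RNA-binding zinc finger protein that regulates splicing, was below the controls in every knockout library. It was called in the 3 groups of set 1, with −1.57 (SE 0.24, adjusted p = 0.00636) in DKO yBM, and in 3 groups of set 2. Phlda3, an inhibitor of Akt signalling, and Aen, an apoptosis-enhancing nuclease, were each called in 2 comparisons. The values were −2.34 (SE 0.45, adjusted p = 0.0146) for Phlda3 in set 1 DKO yBM and −2.65 (SE 0.55, adjusted p = 0.00285) for Aen in SKO tumor.

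The 7 genes of growth arrest and stress signalling divided. In set 1, 2 were lower in DKO yBM, 1 in DKO BMT and 1 in DKO tumor, where 6.14%, 1.4% and 2.21% of all genes were. In set 2, 2 were lower in each of the 6 groups, Btg2 and Sesn1, where 7.77% to 10.2% of all genes were. In set 1, Btg2 stood at 1.98 to 13.2 TPM (median 3.05) in DKO yBM, at 3.52, 4.07 and 8.68 TPM in DKO BMT and at 3.73, 4.69 and 5.42 TPM in DKO tumor, against 47.8, 27.5, 63.1 and 42.1 TPM in control BM. Btg2 in the DKO libraries of set 2 stood at 4.17, 4.33 and 2.96 TPM in yBM, at 3.92, 11.1 and 2.24 TPM in BMT and at 5.87, 3.57 and 3.87 TPM in tumor. Btg2 in the SKO libraries stood at 6.55, 7.07 and 4.24 TPM in yBM, at 2.40, 4.90 and 4.22 TPM in BMT and at 6.04, 2.02 and 8.81 TPM in tumor, against 11.6, 32.1 and 39.1 TPM in control BM. Btg2, an antiproliferative protein that promotes removal of poly(A) tails, had no overlap between the knockout and control libraries of either set, and DKO yBM 4 of set 1, at 13.2 TPM, was the highest knockout library. Its log2 fold change was −3.19 (SE 0.40, adjusted p = 0.00115) in set 1 DKO yBM, and all 9 comparisons were called. In set 1, Sesn1 stood at 8.28 to 13.9 TPM (median 11.2) in DKO yBM, at 35.5, 18.03 and 21.7 TPM in DKO BMT and at 10.9, 8.37 and 16.2 TPM in DKO tumor, against 6.17, 14.9, 34.9 and 52.2 TPM in control BM. Sesn1 in the DKO libraries of set 2 stood at 17.8, 17.6 and 7.30 TPM in yBM, at 24.1, 9.30 and 4.32 TPM in BMT and at 11.2, 5.18 and 4.47 TPM in tumor. Sesn1 in the SKO libraries stood at 10.95, 8.56 and 12.97 TPM in yBM, at 18.1, 23.1 and 9.24 TPM in BMT and at 8.17, 7.59 and 14.5 TPM in tumor, against 52.0, 51.5 and 76.7 TPM in control BM. Sesn1 encodes sestrin 1, a leucine-sensing inhibitor of mTORC1, and separated the groups in set 2, with −3.01 (SE 0.51, adjusted p = 0.000338) in DKO tumor. In set 1 its control libraries spread over 6.17 to 52.2 TPM and the groups overlapped, with −0.84 (SE 0.43, adjusted p = 0.217) in DKO yBM. Sesn2 was called only in set 1 DKO yBM, with −1.29 (SE 0.31, adjusted p = 0.0252).

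**Figure D3:**
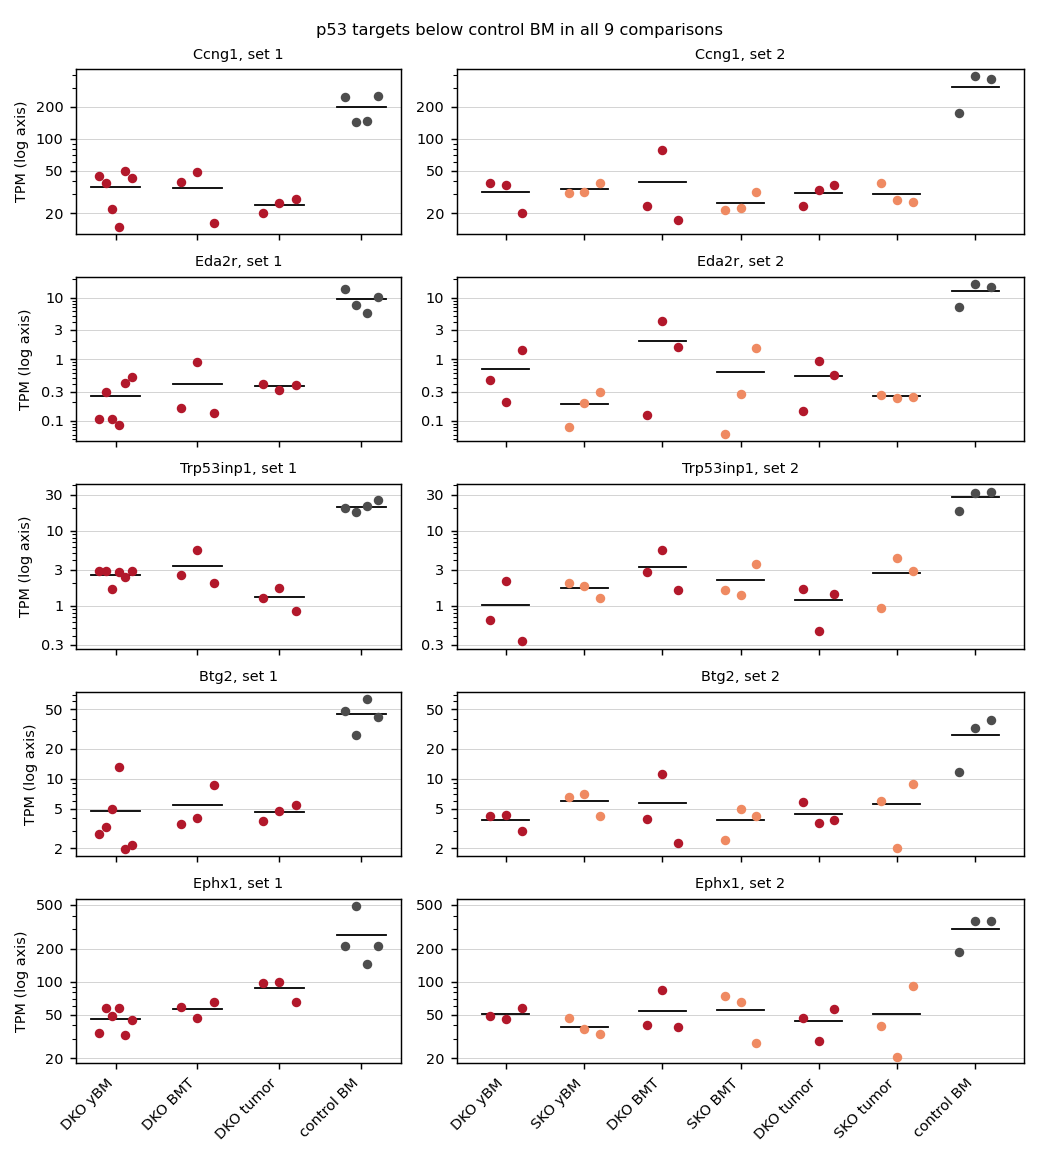
TPM on a log axis of Ccng1, Eda2r, Trp53inp1, Btg2 and Ephx1, the targets called lower in all 9 comparisons, in every library (points) with the group mean (bar), knockout groups left of control BM. In each panel all knockout libraries lie under all control libraries, and DKO BMT 2 is the highest knockout library of set 2 for all of them but Ephx1.

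The remaining 4 growth arrest genes were called lower in no comparison. Gadd45a, a stress sensor that restrains the G2/M transition, stood in set 2 at 15.7, 6.57 and 235 TPM in DKO BMT and at 9.17, 47.7 and 159 TPM in SKO BMT, against 17.5, 14.2 and 16.4 TPM in control BM, so DKO BMT 3, SKO BMT 2 and SKO BMT 3 lay above all controls and DKO BMT 2 and SKO BMT 1 below all of them. The log2 fold changes of Gadd45a were 0.87 (SE 0.97, adjusted p = 0.61) in DKO BMT and 1.34 (SE 0.97, adjusted p = 0.38) in SKO BMT. Plk2, a polo-like kinase, stood in set 2 at 59.0, 109 and 42.8 TPM in DKO tumor, against 20.9, 25.6 and 25.7 TPM in control BM, and lay above all controls there, but the fit gave 1.40 (SE 0.74, adjusted p = 0.211). All 9 DKO libraries of set 2 held more Plk2 than any control (33.7 to 109 TPM), and 5 of the 9 SKO libraries did. Plk2 reached 168 TPM in SKO BMT 3, the library that also held 159 TPM of Gadd45a. Plk3, a related kinase, and Ddit4l, an inhibitor of mTOR signalling, were called in no comparison, with log2 fold changes of 0.42 to −0.71 for Plk3 and 0.47 to −2.36 for Ddit4l.

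Of the 5 DNA repair genes, 3 were lower in set 1 DKO yBM, 1 in DKO BMT and 0 in DKO tumor, against 6.14%, 1.4% and 2.21% of all genes. In DKO tumor 3 were lower at an unadjusted p under 0.05 by limma, as were 14.3% of all genes. In set 2 between 0 and 2 were lower, where 7.77% to 10.2% of all genes were, with none higher. In set 1, Ercc5 stood at 2.53 to 5.77 TPM (median 3.80) in DKO yBM, at 4.59, 4.39 and 1.89 TPM in DKO BMT and at 2.86, 5.50 and 4.60 TPM in DKO tumor, against 14.6, 7.66, 8.19 and 9.82 TPM in control BM. Ercc5 in the DKO libraries of set 2 stood at 4.12, 4.32 and 2.87 TPM in yBM, at 4.04, 9.48 and 3.81 TPM in BMT and at 5.09, 4.74 and 4.72 TPM in tumor. Ercc5 in the SKO libraries stood at 5.36, 7.45 and 6.07 TPM in yBM, at 2.63, 4.98 and 4.51 TPM in BMT and at 5.65, 4.36 and 5.82 TPM in tumor, against 6.21, 16.6 and 16.3 TPM in control BM. Ercc5, the XPG endonuclease of nucleotide excision repair, was below all controls of set 1 in every knockout library and overlapped with them in set 2, where control BM 1 held 6.21 TPM. It was called in 5 comparisons, with −1.14 (SE 0.26, adjusted p = 0.0238) in set 1 DKO yBM. Polk, a translesion polymerase, was called in set 1 DKO yBM, with −1.58 (SE 0.44, adjusted p = 0.0416), and in SKO BMT. Xpc, which recognizes DNA lesions, was called only in SKO tumor, with −1.36 (SE 0.40, adjusted p = 0.0312), while Rrm2b, the p53-inducible subunit of ribonucleotide reductase, was called only in set 1 DKO yBM, with −0.85 (SE 0.25, adjusted p = 0.0475). Ddb2, a partner of Xpc in lesion recognition that is a p53 target in human cells, was called nowhere, with log2 fold changes of −0.58 to 0.95.

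The metabolic targets moved in both directions. In set 1, Dcxr stood at 6.73 to 23.7 TPM (median 12.8) in DKO yBM, at 28.4, 13.05 and 21.2 TPM in DKO BMT and at 22.7, 5.63 and 7.08 TPM in DKO tumor, against 46.5, 53.3, 56.1 and 75.8 TPM in control BM. Dcxr in the DKO libraries of set 2 stood at 8.74, 8.45 and 16.6 TPM in yBM, at 5.54, 13.3 and 15.96 TPM in BMT and at 7.27, 2.19 and 5.36 TPM in tumor. Dcxr in the SKO libraries stood at 9.69, 10.3 and 7.24 TPM in yBM, at 23.7, 17.1 and 11.2 TPM in BMT and at 9.50, 8.11 and 14.8 TPM in tumor, against 49.8, 144 and 174 TPM in control BM. Dcxr, a carbonyl and xylulose reductase, was below every control in every knockout library and had the smallest p of all targets in set 2 DKO tumor, with −4.30 (SE 0.49, adjusted p = 4.06e-06). It was called in 8 comparisons, and missed the threshold in set 1 DKO BMT, with −1.47 (SE 0.45, adjusted p = 0.0866). In set 1, Ephx1 stood at 32.5 to 57.3 TPM (median 46.5) in DKO yBM, at 58.8, 46.1 and 64.4 TPM in DKO BMT and at 97.9, 99.8 and 65.7 TPM in DKO tumor, against 211, 493, 146 and 209 TPM in control BM. Ephx1 in the DKO libraries of set 2 stood at 48.6, 45.8 and 57.4 TPM in yBM, at 40.3, 84.0 and 38.8 TPM in BMT and at 46.8, 28.5 and 56.4 TPM in tumor. Ephx1 in the SKO libraries stood at 46.7, 36.7 and 33.1 TPM in yBM, at 73.4, 64.7 and 27.8 TPM in BMT and at 39.0, 20.6 and 90.7 TPM in tumor, against 187, 361 and 358 TPM in control BM. Ephx1, the microsomal epoxide hydrolase that detoxifies reactive epoxides, was lower in all 9 comparisons, with −2.39 (SE 0.29, adjusted p = 0.00115) in set 1 DKO yBM and −1.45 (SE 0.34, adjusted p = 0.0394) in DKO tumor.

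Fdxr and Gls2 were the targets called in the opposite direction. Fdxr, the ferredoxin reductase of mitochondrial steroid and iron-sulfur cluster synthesis, stood in set 2 at 18.1, 15.9 and 8.23 TPM in SKO BMT, against 1.92, 3.89 and 6.60 TPM in control BM, with no overlap and a log2 fold change of 1.59 (SE 0.43, adjusted p = 0.0188). Its log2 fold changes were above 0 in all 9 comparisons (0.35 to 1.59), 1 of them called. In set 1 DKO BMT it stood at 7.36, 9.69 and 16.2 TPM, against 5.26, 5.29, 4.29 and 4.16 TPM in control BM, with 1.01 (SE 0.49, adjusted p = 0.266). Gls2, the liver-type glutaminase, stood in set 2 at 3.27, 1.72 and 1.55 TPM in DKO tumor, against 0.0248, 0.0390 and 0.160 TPM in control BM, with 1.53 (SE 0.27, adjusted p = 0.000504). It was also called in DKO yBM, with 0.81 (SE 0.27, adjusted p = 0.0414), and in DKO BMT, with 0.93 (SE 0.27, adjusted p = 0.0304), at 0.664 to 1.48 TPM in those libraries, where a pseudocount of 1 TPM weighs on the fold change. Of the 18 knockout libraries of set 2, 17 held more Gls2 than any control, and SKO tumor 2 did not. Control BM held at most 0.160 TPM, so Gls2 passed the filter of set 2 only through knockout libraries. In set 1 Gls2 reached 1 TPM in 1 library (1.16 TPM in DKO tumor 3) and was not tested. Tigar, a fructose bisphosphatase, and Abhd4, a lipid hydrolase, were called nowhere, with log2 fold changes of −0.70 to 0.63 for Tigar and −1.06 to 0.20 for Abhd4.

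Pvt1, the noncoding RNA next to Myc, was called nowhere. It stood in set 2 at 88.4, 17.0 and 11.4 TPM in DKO tumor and 42.4, 5.65 and 22.1 TPM in DKO BMT, against 6.94, 18.1 and 16.6 TPM in control BM, so that DKO tumor 1, DKO BMT 1 and DKO BMT 3 exceeded all controls while the other libraries did not. The log2 fold change was 0.97 (SE 0.64, adjusted p = 0.328) in DKO tumor. In set 1 it stood at 4.40 to 8.97 TPM (median 7.37) in DKO yBM, against 12.4, 10.6, 11.8 and 12.6 TPM in control BM, with −0.65 (SE 0.23, adjusted p = 0.0915).

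**Figure D4:**
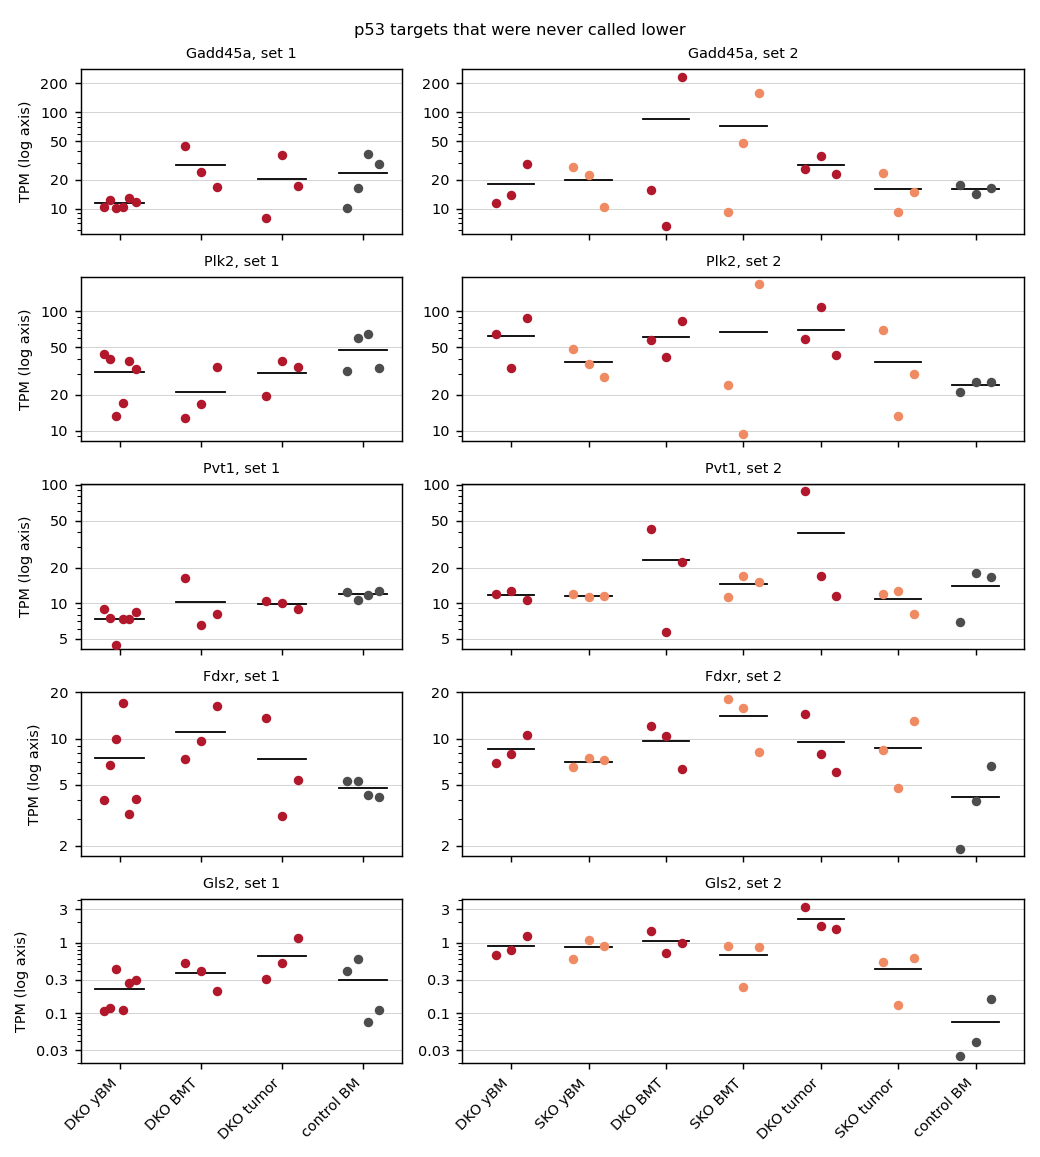
TPM on a log axis of Gadd45a, Plk2, Pvt1, Fdxr and Gls2, which were called lower in no comparison, in every library (points) with the group mean (bar), knockout groups left of control BM. Gadd45a reached 235 TPM in DKO BMT 3 and Pvt1 88.4 TPM in DKO tumor 1 of set 2, while the other libraries of their groups lay near or below the controls, and Gls2 in set 2 DKO tumor lay above all 3 controls.

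Whether deletion of Wwox beside Trp53 altered these genes was examined by setting DKO against SKO cells of set 2. No target was called by limma in yBM, BMT or tumor, where 0.00692%, 0% and 0% of all genes were lower and 0.0138%, 0% and 0% were higher, so few genes of any kind were called. At an unadjusted p under 0.05 no target passed in yBM, 1 was higher in BMT, and 3 were lower and 5 higher in tumor, where 8.39% of all genes passed. The target of smallest p in tumor was Gls2, at 3.27, 1.72 and 1.55 TPM in DKO tumor against 0.544, 0.129 and 0.607 TPM in SKO tumor, with 1.13 (SE 0.27, adjusted p = 0.585) for the difference. In BMT it was Perp, with 1.77 (SE 0.76, adjusted p = 1), which rests on DKO BMT 1. In yBM it was Ercc5, with −0.62 (SE 0.37, adjusted p = 1). The standard errors of the targets ran over 0.27 to 0.97 in these comparisons. Differences of several standard errors could be missed, as the value of Gls2 in tumor shows. Wwox went against the labels in both comparisons of tumor-bearing mice, since the DKO tumor libraries carry it at control levels and SKO BMT 2 and 3 held 0.102 and 0.0857 TPM.

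Within set 1, tumor cells were set against BMT cells and the older against the younger DKO yBM cells. No target was called by limma in tumor against BMT, where 0.201% of all genes were lower and 0.0555% higher, and at an unadjusted p under 0.05, 2 targets were lower and 1 was higher, as were 8.39% and 4.53% of all genes. The target of smallest p was Trp53inp1, at 1.28, 1.74 and 0.849 TPM in DKO tumor against 2.58, 5.59 and 2.00 TPM in DKO BMT, with −0.87 (SE 0.29, adjusted p = 0.195). Every tumor library was lower than every BMT library, so this holds for any pairing of them. A limma fit of these 2 groups with the replicate number as a block gave an unadjusted p of 0.0506, against 0.00942 without the block, and called no gene, an alternative chosen after seeing the data. At 4 months against 1.5 months no target was called and none had an unadjusted p under 0.05, where 0% of all genes were lower and 0.00694% higher. Apaf1 had the smallest p there, at 2.32, 2.53 and 2.16 TPM in the libraries of 4 months against 5.15, 4.57 and 2.48 TPM in those of 1.5 months (log2 fold change −0.56, adjusted p = 1).

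Each target's level was then related to that of Trp53 over the knockout libraries. In each knockout library of set 1, 20 to 28 of the 34 targets (58.8% to 82.4%) lay below every control, against 21.3% to 46.5% of all genes tested. In set 2 it was 21 to 29 of the 36 (58.3% to 80.6%), against 20.3% to 59.5%. The controls of set 2 differed in level, with a mean log2(TPM + 1) over the targets of 3.94 in control BM 1, against 4.74 and 4.82 in control BM 2 and 3. By this count, which does not measure the level, the libraries that kept most Trp53 stood within the range of the others. DKO BMT 2 of set 1, with 28.4 TPM of Trp53, had 25 targets below every control, and DKO BMT 3, with 32.3 TPM, had 23, while DKO tumor 2 and DKO tumor 3, with 2.09 and 2.70 TPM, had 26 each. Of all genes, 32.9% and 32.7% lay below every control in these BMT libraries and 31.4% and 31.3% in these tumor libraries. DKO BMT 2 of set 2, with 14.03 TPM of Trp53, had 23, while DKO BMT 1 and 3, with 1.96 and 1.98 TPM, had 23 and 24. The share of all genes differed more there, at 20.3% in DKO BMT 2, 25.4% in DKO BMT 1 and 43.6% in DKO BMT 3. The highest count, 29, was in SKO tumor 2, where 59.5% of all genes lay below every control and Trp53 was lowest, at 0.792 TPM. That library also held the fewest genes at 1 TPM or more of all libraries, 11001.

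**Figure D5:**
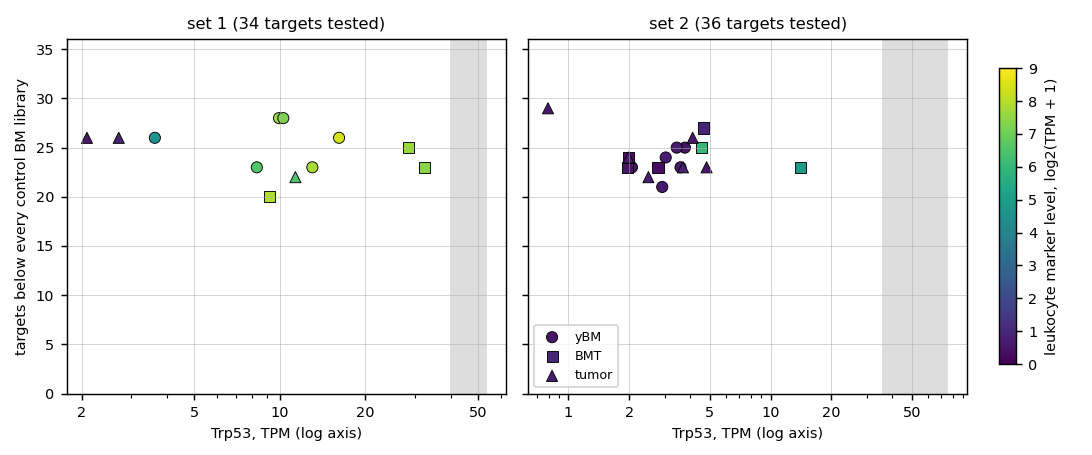
Number of p53 targets below every control BM library (vertical axis) against Trp53 in TPM on a log axis, 1 point per knockout library, shaped by source and coloured by the mean log2(TPM + 1) of 14 leukocyte markers, with the range of Trp53 in control BM in grey. The counts stay within 20 to 29 over the whole range of Trp53, also in the 2 set 1 BMT libraries at 28.4 and 32.3 TPM.

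Over the 12 knockout libraries of set 1, Pidd1 was the only target whose level was related to Trp53 after adjustment over all 14403 other genes, with Pearson's r = 0.89 (permutation p = 3e-05, adjusted p = 0.00948) and Spearman's rho = 0.87 (permutation p = 0.00056), both two-sided over 100000 permutations. Of all genes, 2.35% were positively and 0.375% negatively related. Without the 2 libraries farthest from the median of Trp53 (DKO tumor 2 and 3), Pidd1 kept r = 0.89, with values centred on the group means r was 0.85, and given the leukocyte level it was 0.94. However, none of the 34 targets passed the adjustment over all genes in those 3 settings. Pidd1 stood at 1.18 TPM in DKO BMT 2 and at 1.58 TPM in DKO BMT 3, the libraries with most Trp53, against 1.598 to 3.59 TPM in control BM. The median r over the 34 targets was 0.14, against −0.09 over all genes. An unadjusted permutation p under 0.05 was reached by 6 of the 34 targets, as by 15.4% of all genes. Tnfrsf10b had the lowest r (−0.73, adjusted p = 0.111). Trp53 itself followed the leukocyte level over these libraries, with r = 0.83 and rho = 0.64, and r = 0.65 without the same 2 libraries, given as a description because the points share groups and cultures.

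Over the 18 knockout libraries of set 2, no target passed, nor did any gene (0% positive and 0% negative), with 11 of the 36 targets at an unadjusted permutation p under 0.05, as were 20.5% of all genes. The highest r was that of Aen (0.72, adjusted p = 0.222, rho = 0.62), and the lowest was that of Ddb2 (−0.49, adjusted p = 0.24, rho = −0.61). The median r was 0.31 over the targets and 0.30 over all genes. The mean level of the targets had r = 0.53 and rho = −0.08 with Trp53, and r = −0.42 without DKO BMT 2 and SKO tumor 2, the libraries farthest from the median, so the relation rested on those libraries. In set 1 the mean level had r = 0.40, rho = 0.47, and r = 0.52 without DKO tumor 2 and 3. Leukocyte markers and Trp53 had r = 0.61 and rho = 0.49 in set 2, and r = 0.38 without DKO BMT 2 and SKO tumor 2.

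Genes around this list were counted in the same fits. Cdkn1a, which encodes the CDK inhibitor p21 and is the classic p53 target of cell-cycle arrest, stood in set 1 at 10.5 to 69.6 TPM (median 41.0) in DKO yBM, 271, 67.9 and 48.1 TPM in DKO BMT and 63.5, 7.65 and 2.04 TPM in DKO tumor, against 213, 271, 149 and 159.9 TPM in control BM. DKO BMT 1 was thus level with the highest control, and of these groups only DKO tumor was called, with −4.02 (SE 0.85, adjusted p = 0.0324). In set 2 Cdkn1a averaged 5.34 ± 1.20 TPM in DKO yBM, against 477 ± 167 TPM in control BM (SD, n = 3 each), and was called in all 6 groups, with log2 fold changes of −4.63 to −6.65. SKO BMT 2 and DKO BMT 2, the libraries with leukocyte markers, held 119 and 65.2 TPM. Of 10 further targets, Cdkn1a included, 9 were tested in set 1 and 10 in set 2. In set 1 Psrc1 was lower in DKO yBM and DKO BMT, and Psrc1, Dglucy and Cdkn1a in DKO tumor, against 1.4% to 6.14% of all genes. In the groups of set 2, 3 to 5 (Cdkn1a, Psrc1 and Trp53cor1 in all 6, Dglucy in 5 and Cd82 in 3) were lower, against 7.77% to 10.2% of all genes, none higher. Psrc1 had the smallest p among them in set 1, with −2.51 (SE 0.32, adjusted p = 0.00165) in DKO yBM, and in 4 groups of set 2, with −3.64 (SE 0.49, adjusted p = 2.93e-05) in DKO yBM, while Dglucy had it in DKO BMT and DKO tumor. Of 18 tested regulators of p53, 2 (Mdm4 and Ep300) were lower in set 1 DKO yBM and 0 in the other 8 groups by limma, where 0 to 3 were lower at an unadjusted p under 0.05, as were 11.2% to 16.7% of all genes. In those 8 groups 0 to 2 (Trp63, Chek1 or Cdkn2a) were higher at the adjusted threshold, as were 0.958% to 9.34% of all genes. Mdm4, the Mdm2 relative that inhibits p53, fell in set 1 DKO yBM with −1.38 (SE 0.29, adjusted p = 0.019), and Chek1, the checkpoint kinase, rose in set 2 DKO tumor with 3.58 (SE 0.68, adjusted p = 0.00101). Of 12 cell-cycle genes that p53 represses through the DREAM complex, 2 (Birc5 and Ccnb2) were higher in set 1 DKO yBM, against 1.67% of all genes. By limma 0 were higher in DKO BMT and 0 in DKO tumor (10 and 11 at an unadjusted p under 0.05, against 8.67% and 8.34% of all genes). In the groups of set 2, 4 to 11 were higher, against 2.01% to 9.34% of all genes, with none lower. Birc5, which encodes survivin, had the smallest p among them in set 1 DKO yBM, with 1.68 (SE 0.39, adjusted p = 0.0242), and Cenpa, the centromeric histone, in set 2 DKO tumor, with 3.27 (SE 0.50, adjusted p = 0.000106).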

How the data were processed

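The authors cultured marrow and tumor cells, prepared stranded poly-A libraries and, per their processing notes, used Trim Galore 0.6.1, FastQC, Salmon and DESeq2 with the mm39 genome. The deposited table holds TPM values for 51123 gene IDs in 37 libraries, of which 48246 IDs were matched to a symbol. TPM keeps no sequencing depth, so precision was taken from the spread between libraries alone. The names of 3 control columns of set 2 show the group but not the sample. The 2 sets were fitted separately with limma 3.58.1 (R 4.3.3) on log2(TPM + 1), with a mean-variance trend, all groups of the set in 1 fit and Benjamini-Hochberg adjustment. Genes at 1 TPM or more in 3 or more libraries were kept, 14404 in set 1 and 14458 in set 2. Fold changes are on that scale, which understates the change of low genes. The relation to Trp53 was computed with Python 3.11.15 and NumPy 2.4.6. The limma fit and the correlation with permutation were tested on simulated data. The members and lists were chosen with earlier results of these data known. All 36 members were accounted for. Values were given per library for Trp53, Mdm2, Ccng1 and members called in 5 or more of the 9 comparisons with control BM, for the 3 called members of largest change in each comparison, for members called higher, and for the member of smallest p in each other list. Alternatives were another pseudocount, no filter, median-ratio and quantile scaling, 2-group fits, a leukocyte covariate, a replicate block and leaving out libraries. The study describes BMT and tumor cells as paired, but no label ties their numbers to mice. Same-numbered DKO tumor and DKO BMT libraries of set 1 correlated at 0.0664, 0.285 and −0.0907 in their deviations from the group means, so the block was kept as an alternative.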

Additional observations from a re-analysis of the deposited data

Results flagged for a closer look

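In set 1 DKO yBM 3, Pvt1 stood at 4.40 TPM, apart from the other 5 DKO yBM libraries, which held 7.26 to 8.97 TPM. On the log2(TPM + 1) scale, the gap to the nearest of them was 0.694 of the range of the group, above the critical value of Dixon's test for 6 libraries. It was the only such value among 70 pairs of a gene and a group examined, and chance sets about 1 in 20 groups apart. The pairs came from DKO yBM and control BM of set 1 only, the larger groups.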

How the results depend on the processing

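Over all 9 comparisons with control BM, 132 calls were made on the targets. Of these, 127 were kept with median-ratio scaling, 124 with quantile normalization, 121 with a pseudocount of 0.1, 115 without a filter, 90 in fits of the 2 compared groups alone, 79 in every fit that left out 1 library and 29 with the leukocyte level as a covariate. Leaving out 1 library gave 8 to 17 targets lower in set 1 DKO yBM, 4 to 10 in DKO BMT and 3 to 11 in DKO tumor, and in set 2 12 to 17 in DKO yBM, 12 to 15 in SKO yBM, 10 to 14 in DKO BMT, 10 to 16 in SKO BMT, 10 to 15 in DKO tumor and 13 to 18 in SKO tumor. It gave 0 in the comparisons of DKO with SKO, of tumor with BMT and of the 2 ages. The shares of all genes called in the alternative fits are not given here, so counts from those fits have no background beside them.

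Fits of the 2 compared groups alone gave 3 in set 1 DKO BMT, 4 in set 1 DKO tumor, 5 in set 2 DKO BMT, 9 in SKO BMT and 9 in SKO tumor. The leukocyte covariate gave 2 in set 1 DKO tumor and 0 in each of the 6 groups of set 2, where Ercc5 in DKO tumor turned to 0.0408 on the log2 scale. Without libraries whose Wwox went against the label the counts were 0 in set 1 DKO yBM, 2 in DKO BMT and 5 in DKO tumor, and set 2 DKO tumor had no library left. Without those whose Trp53 did, DKO BMT had 3, with 1 library left. Without the tumor libraries that lacked leukocyte markers, an alternative chosen after seeing the data, set 1 DKO tumor had 4, also with 1 library left, whose spread was taken from the other groups. The causes were not tested.

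The replicate block gave 6 in set 1 DKO yBM, 4 in DKO BMT and 4 in DKO tumor, and 0 in the comparisons of DKO with SKO and of tumor with BMT. Same-numbered libraries correlated at −0.279 to 0.285 in set 1, at −0.223 to 0.381 in set 2, and tumor and BMT libraries of 1 genotype at −0.144 to 0.134 in set 2. For tumor against BMT in set 1, which the study describes as paired, a block in a fit of these 2 groups alone also gave 0 targets, and 2 at an unadjusted p under 0.05, an alternative chosen after seeing the data. No block was fitted for the comparisons with control BM in set 2, whose control columns carry no number. The count of targets related to Trp53 in set 1 was 0 with values centred on group means, 0 without the 2 farthest libraries and 0 given the leukocyte level.

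Median-ratio scaling moved the median of all genes to 0.00 in set 1 DKO yBM, against −0.22 unscaled, and that of the targets to −0.82, against −1.07. Of all called genes, 62.0% were higher there, against 21.4% unscaled, 60.1% against 40.7% in DKO BMT and 59.8% against 35.0% in DKO tumor. In SKO tumor it was 32.4% against 17.4%, and with quantile normalization 45.8%, with 55.4% against 37.4% in SKO BMT and 53.5% against 35.1% in DKO BMT. TPM keeps no depth, so counting error is not known.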
